A study of Mus musculus with 84 samples.

Results

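Hindbrain GLAST-positive astrocytes were compared between mice with chronic experimental autoimmune encephalomyelitis (EAE) and unimmunized controls, using the 4 chronic and 5 control libraries of this population, which are 9 of the 66 EAE libraries and of the 84 samples in the series. EAE is a model of multiple sclerosis in which immunization against a myelin peptide makes T cells attack the central nervous system. The methods give C57BL/6 as the strain of the EAE experiments, to which these controls belong. The EAE mice were females, 10 weeks old when they received the MOG peptide in complete Freund's adjuvant with pertussis toxin, whereas the controls received none of these. The methods do not give the age at collection, or the age or sex of the controls. Astrocytes were sorted from hindbrain (cerebellum with brain stem) as CD11B-negative, CD45-negative, ACSA-2-positive and GLAST-positive cells, a gate that in this region also takes in the Bergmann glia of the cerebellum, and up to 2 mice were pooled for a library. Libraries of the same population taken at score 1 (mild clinical signs, n = 6) and score 4 (severe clinical signs, n = 6) were used to place the chronic stage. Since the sources do not say which libraries came from separate sorts, p-values measure the spread between libraries. That spread was estimated over all 66 EAE libraries together.

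Astrocytes answer inflammation of the nervous system by becoming reactive, a state in which they raise intermediate filaments, complement components and secreted protease inhibitors. Interferons made by infiltrating lymphocytes act on astrocytes and switch on antiviral genes, guanylate-binding proteins and the machinery that presents peptides on MHC molecules. GLAST (Slc1a3) is a glutamate transporter of astrocytes, and ACSA-2 is the surface protein encoded by Atp1b2.

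The 9 libraries held between 2238841 and 4082877 counts, so that 3 counts, taken as the detection floor, corresponded to 0.688 to 1.23 CPM (counts scaled to the sequencing depth, with TMM factors here and throughout). Genes that define astrocytes were abundant in all of them, with Slc1a3 at 4595 to 9085 CPM and Atp1b2 at 4073 to 6744 CPM, as the label states. The chronic libraries differed from each other in makeup. Summed over 20 astrocyte identity genes, chronic libraries 1, 2, 3 and 4 held 40835, 40045, 53357 and 57426 CPM, against 61657 to 65873 CPM in the controls, and summed over 8 Bergmann glia genes they held 5054, 7813, 9912 and 10431 CPM against 10713 to 13173 CPM. All 4 chronic libraries were below all 5 controls on both sums, and libraries 1 and 2 were the furthest below. In sorted bulk samples, fewer cells of a type and less RNA per cell cannot be told apart.

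In chronic EAE, 283 genes were higher than in controls, 1.21% of the 23324 tested, and 23 were lower, 0.0986% (edgeR quasi-likelihood test, Benjamini-Hochberg adjusted p under 0.05 and more than a 2-fold change). Among the genes that rose were the complement gene C4b, the acute-phase protease inhibitor Serpina3n, the MHC class I gene H2-D1, 3 MHC class II genes, 4 interferon-stimulated genes, the intermediate filament gene Gfap, and 9 of 11 oligodendrocyte markers. The number of calls depended on single libraries: without libraries 1 and 2 together, an alternative chosen after seeing the data, 26 genes were higher and 1 was lower, and those 26 were among the 283. Leaving out chronic library 1 alone gave 152 higher, chronic library 2 182, control library 1 183 and control library 5 167.

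C4b, which encodes the complement component C4, was at 123, 47.7, 67.4 and 50.1 CPM in chronic libraries 1 to 4 and at 2.45, 6.82, 0.326, 3.81 and 14.5 CPM in the controls. Every chronic library was above every control, and the log2 fold change was 3.63 ± 0.45 (SE), with an edgeR adjusted p of 2.8e-07. The gene lies on chromosome 17 at 34728380 to 34743882 (GRCm38) and has a near-identical copy, C4a, with which reads could be shared. Counts assigned to C4a were 7.28, 0, 0 and 0.491 CPM in chronic libraries and 0 in controls. C4b was called in each of the 9 fits that left out 1 library of the comparison, with a log2 fold change of 3.25 to 4.41, and at 3.33 with an adjusted p of 8.6e-05 without chronic libraries 1 and 2.

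Serpina3n was at 118, 57.1, 48.1 and 55.2 CPM in the chronic libraries and at 10.2, 6.82, 12.7, 4.82 and 0 CPM in the controls, again with no overlap. Its log2 fold change was 3.36 ± 0.55 (SE; edgeR adjusted p = 0.00017). Of 16 complement components and regulators, 15 were tested and edgeR called C4b, against 1.21% of all genes called higher, while DESeq2 also called C4a and Cd59a. C3 was detected in chronic library 1 only, at 0.383 CPM, under the floor.

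Gfap, a standard marker of reactive astrocytes, was at 35.6, 45.8, 62.1 and 89.8 CPM in chronic EAE and at 6.54, 36.4, 28.4, 13.7 and 16.4 CPM in controls. The groups overlapped at chronic library 1 and control library 2, and the log2 fold change was 1.53 ± 0.38 (SE; edgeR adjusted p = 0.019). The call was lost in 4 of the 9 fits that left out a library, with an adjusted p of 0.10 without chronic library 4. Vim, another intermediate filament gene, was at 292 to 652 CPM in chronic libraries and 382 to 535 CPM in controls (log2 fold change 0.22 ± 0.45).

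**Figure D1:**
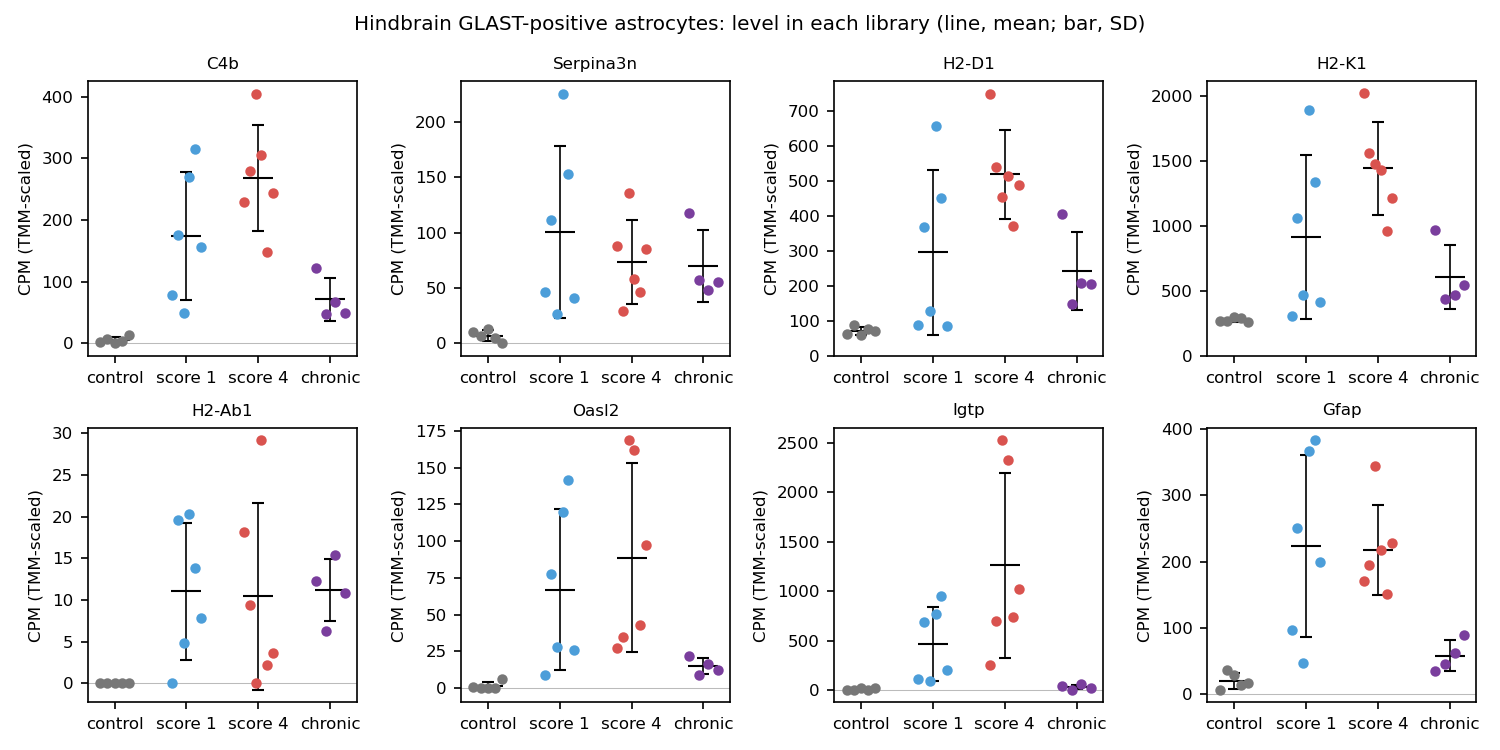
TMM-scaled CPM (vertical axis) of 8 genes in each hindbrain GLAST-positive library by stage: points are libraries, horizontal lines means and bars SDs (control n = 5, score 1 n = 6, score 4 n = 6, chronic n = 4). C4b, Serpina3n and H2-D1 stood above all controls in each chronic library, while Igtp, at 6.34 to 61.6 CPM in chronic libraries, lay below every score 4 library (254 to 2524 CPM).

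Of 13 pan-reactive genes, edgeR called Serpina3n and Gfap, against 1.21% of all genes called higher. Lcn2, a secreted iron-carrier binding protein, was at 2.30, 0, 2.29 and 0 CPM against 0 in all controls (adjusted p = 0.16). Of 11 tested genes typical of reactivity after lipopolysaccharide, Iigp1 and H2-D1 rose, and DESeq2 also called Psmb8 and Ggta1. Of 11 typical of stroke, none was called by edgeR or DESeq2, and 3 had an unadjusted p under 0.05, 2 of them higher and 1 lower, against 19.1% of all genes. No cell cycle gene of 30 was called by edgeR. An unadjusted p under 0.05 was found for 4, all of them higher, against 19.1% of all genes in either direction. DESeq2 called 2 of the 30 higher, and 601 of all genes. The proliferation marker Mki67 was at 3.06, 7.17, 0 and 0 CPM against 4.09, 0, 0, 0 and 0 CPM. None of 19 cholesterol synthesis genes was called by either tool, and none had an unadjusted p under 0.05. Hmgcs1, which encodes an enzyme of the early mevalonate pathway, was at 261 to 424 CPM in chronic libraries and 297 to 472 CPM in controls.

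MHC class I molecules display peptides from inside the cell to CD8 T cells. Of 20 class I presentation genes, 3 rose (H2-D1, Psmb9 and Nlrc5), against 1.21% of all genes. The median log2 fold change was 1.10 over the 20. Over the 14 with a mean of 5 CPM or more it was 0.82, against 0.00 over all genes at that level. H2-D1, a class I heavy chain, was at 406, 150, 210 and 207 CPM in chronic libraries and at 59.4 to 88.7 CPM in controls, with no overlap (log2 fold change 1.75 ± 0.41; adjusted p = 0.011). The adjusted p was 0.12 without chronic library 1 and 0.23 without libraries 1 and 2. H2-K1, the other classical heavy chain of this strain, was at 967, 434, 470 and 545 CPM against 264 to 297 CPM. B2m, which encodes the shared light chain, was at 352, 148, 163 and 217 CPM against 71.5 to 130 CPM. Neither of these overlapped between groups, and edgeR called neither (log2 fold changes 1.12 ± 0.34 and 1.13 ± 0.36; adjusted p = 0.075 and 0.094). Both were called by DESeq2 (adjusted p = 0.022 and 0.033), without the low-count filter (0.017 and 0.027) and when only the libraries of the contrast were fitted with edgeR (0.0012 and 0.0056). In all, 5 of the 20 genes were higher in every chronic library than in every control (H2-K1, H2-D1, B2m, Tapbp and the immunoproteasome subunit Psmb8), against 2.25% of all genes tested, and 2 were lower (the chaperones Calr and Pdia3), against 1.5%.

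Psmb9, an immunoproteasome subunit, was at 6.89, 0, 6.65 and 9.08 CPM and at 0, 0, 0, 0.508 and 0.736 CPM in the controls (log2 fold change 4.06 ± 1.03; adjusted p = 0.022). It overlapped the controls at chronic library 2, and it shares exonic sequence with Tap1 on the opposite strand, whose reads cannot be told apart here because no source used here says whether counting was stranded. Nlrc5, the transactivator of class I genes, had counts in 2 chronic libraries, at 1.91 and 7.33 CPM, and under the floor in 1 control. Its adjusted p of 0.0097 rose to 0.30 without chronic library 3.

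MHC class II genes, which present peptides to CD4 T cells, were low but were detected. H2-Ab1 was at 12.3, 6.34, 15.4 and 10.8 CPM in chronic libraries and at 0 in all 5 controls, at least 11.6-fold higher when the controls are set to 3 counts per library (adjusted p = 0.00098). H2-Aa was at 11.9, 4.97, 5.73 and 15.0 CPM, with a single control above 0 at 0.379 CPM (adjusted p = 0.0053). H2-Eb1 was at 10.3, 7.17, 0 and 0.736 CPM, carried by libraries 1 and 2, and its adjusted p was 0.041, rising to 0.16 without library 1. The invariant chain gene Cd74 was at 6.13, 0, 3.44 and 0 CPM against 0 in controls, and was called by DESeq2 (adjusted p = 0.016) but not by edgeR (adjusted p = 0.11), and Ciita, the class II transactivator, had no count in these 9 libraries. Myeloid cells express class II genes as well, and the values of their markers are given below.

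Of 37 interferon-stimulated genes 4 rose, against 1.21% of all genes, none fell, DESeq2 called 7, and the median log2 fold change was 1.01. Oasl2, of the oligoadenylate synthetase-like family, was at 21.8, 8.83, 16.5 and 12.5 CPM against 0.409, 0, 0, 0.254 and 6.14 CPM in controls, without overlap (log2 fold change 3.23 ± 0.68; adjusted p = 0.0036). Ifit1, an antiviral RNA-binding protein gene, was at 11.5, 11.9, 27.5 and 10.1 CPM against 0.979 to 6.14 CPM (2.28 ± 0.61; adjusted p = 0.034). Gbp3 and Iigp1, which encode interferon-inducible GTPases, rose with log2 fold changes of 3.58 ± 0.93 and 2.87 ± 0.78 (adjusted p = 0.027 and 0.037), and both overlapped the controls at chronic library 2. When single libraries were left out, Ifit1 and Iigp1 were called in 2 of 9 fits and Gbp3 in 4 of 9. Igtp, at 38.7, 6.34, 61.6 and 21.6 CPM against 4.93 to 22.3 CPM, was not called (1.42 ± 0.62; adjusted p = 0.21), and its exons overlap those of Irgm2 on the same strand. edgeR called none of the 37 without chronic libraries 1 and 2, when the median of the list was still 1.01.

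More genes of the interferon and MHC lists were called higher at the earlier stages. Score 1 and score 4 were compared with the same 5 controls, so these comparisons are not independent of the chronic one. Against controls, 31 of the 37 interferon-stimulated genes rose at score 1, when 1.27% of all genes rose and 0.214% fell, and 32 at score 4, when 1.66% rose and 0.369% fell, with median log2 fold changes of 3.6 and 4.34. Of the MHC class I genes 10 rose at score 1 and 13 at score 4, and of the class II genes 5 and 6. These stages had 6 libraries each and the chronic stage 4, so the counts do not measure differences in level. Chronic EAE was not tested against score 1. The summed interferon-stimulated level overlapped, at 1124 to 8000 CPM at score 1 and 696 to 1202 CPM in chronic EAE.

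Chronic EAE was then compared directly with score 4, without the controls. In this comparison 629 genes were higher in chronic EAE (2.7%) and 213 lower (0.913%). Their total of 842 was 471 without chronic library 2 and 415 when only the libraries of the contrast were fitted. The interferon-stimulated genes accounted for 28 of the 213, and no gene of that list was higher. Igtp was at 254 to 2524 CPM at score 4 and 6.34 to 61.6 CPM in chronic EAE, with a log2 fold change of -5.30 ± 0.72 and an edgeR adjusted p of 4.7e-07. Gbp2, another interferon-inducible GTPase, was at 30.1 to 703 CPM at score 4 and at 8 to 8.1 CPM in every chronic library (-5.09 ± 0.87; adjusted p = 5e-05). Irgm1, an immunity-related GTPase gene, was at 17.95 to 172.5 CPM at score 4 and 0 to 4.965 CPM in chronic EAE (-4.89 ± 0.80; adjusted p = 2.6e-05). Gbp6, at 1.74 to 264 CPM at score 4, was under 3 counts in every chronic library. The largest rises without overlap were in Hbb-bs, Gm27202, A930017K11Rik, Cdh13 and Hebp2, with chronic means of 5.24 to 10.2 CPM. Among the lists, 3 of 5 oligodendrocyte precursor genes and 3 of 10 neuron genes were higher than at score 4. So were 2 of 11 oligodendrocyte and 4 of 23 synapse and neurotransmitter support genes, against 2.7% of all genes.

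C4b fell from score 4 to chronic EAE (log2 fold change -1.90 ± 0.41; adjusted p = 0.0017), from 148 to 405 CPM to 47.7 to 123 CPM, and Gfap fell likewise (-1.90 ± 0.38; adjusted p = 0.00067). Serpina3n, at 29.6 to 136 CPM at score 4, had a log2 difference of -0.09 ± 0.48, and H2-Ab1, at 0 to 29.2 CPM, one of 0.08 ± 0.77, so for both the 2 stages overlapped. Of the 20 class I genes 8 fell, H2-K1 and B2m among them (-1.26 ± 0.34 and -1.47 ± 0.37), while H2-D1 had a difference of -1.10 ± 0.41 (edgeR adjusted p = 0.11). No class II gene of the 11 tested was called in either direction. The metallothionein genes Mt1 and Mt2, which buffer zinc and copper, fell (-1.48 ± 0.41 and -1.49 ± 0.41), and in chronic EAE they differed from controls by -0.01 ± 0.41 and 0.28 ± 0.41.

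**Figure D2:**
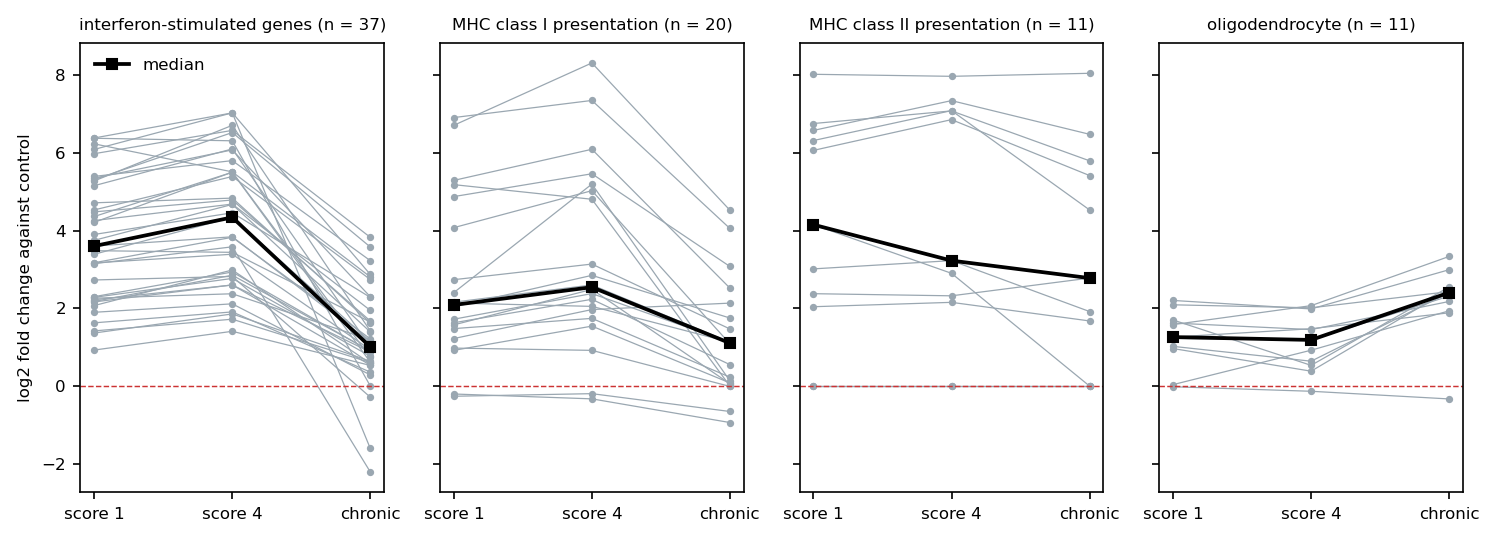
Log2 fold change against the same 5 controls (vertical axis) at score 1, score 4 and chronic EAE for each tested gene of 4 lists (grey lines), with the list median (black squares) and no change (dashed line). The median of the interferon-stimulated list went from 3.6 and 4.34 to 1.01, and that of the oligodendrocyte list from 1.26 and 1.19 to 2.40.

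The interferon-stimulated genes share sequence elements upstream of their starts. Promoter windows from 250 bases before to 50 bases after the start (RefSeq, GRCm38.p6) were found for 27 of the 37 genes and searched on both strands for the interferon-stimulated response element (ISRE: GAAA, any 2 bases, GAAA) and the gamma-activated site (GAS, TTCNNNGAA), whose matches may overlap. An ISRE match was present in 17 of the 27 (63%), against 3.99% of 27025 genes with a window, and a GAS match in 11 (40.7%), against 9.55%. Of the 28 genes that fell from score 4 to chronic EAE 22 had a window, and 15 of these held an ISRE match and 7 a GAS match. Of the 4 genes that rose against controls 3 had a window, and 2 of these held an ISRE match. Among 18 class I genes with a window 5 held an ISRE match and 1 a GAS match, and among 8 class II genes 1 and 1. A match to the sterol regulatory element (SRE, TCACNCCAC) was found in 1 of 14 cholesterol synthesis genes (7.14%), against 1.44%. The 250 bases upstream of Ifit1, which rose against controls, and of Gbp2 and Igtp, which were among the genes that fell from score 4, are shown 5′ to 3′ in their own orientation with the matches in capitals.
Ifit1 (chr19:34640639-34640888, plus strand): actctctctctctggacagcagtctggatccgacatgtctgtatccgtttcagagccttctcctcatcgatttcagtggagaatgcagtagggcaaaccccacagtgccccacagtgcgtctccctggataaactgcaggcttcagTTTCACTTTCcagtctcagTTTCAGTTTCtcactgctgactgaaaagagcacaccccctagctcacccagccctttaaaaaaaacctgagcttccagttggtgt
Gbp2 (chr3:142620413-142620662, plus strand): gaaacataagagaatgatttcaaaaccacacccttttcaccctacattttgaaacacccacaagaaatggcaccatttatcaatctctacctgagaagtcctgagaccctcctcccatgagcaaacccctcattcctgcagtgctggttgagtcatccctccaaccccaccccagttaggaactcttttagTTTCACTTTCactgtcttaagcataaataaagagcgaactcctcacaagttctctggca
Igtp (chr11:58199306-58199555, plus strand): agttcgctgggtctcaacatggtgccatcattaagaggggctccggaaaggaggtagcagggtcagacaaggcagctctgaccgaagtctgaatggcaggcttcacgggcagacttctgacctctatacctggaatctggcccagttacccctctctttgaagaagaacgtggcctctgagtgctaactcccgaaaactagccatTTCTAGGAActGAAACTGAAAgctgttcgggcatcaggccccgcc
Ifit1 held 2 ISRE matches, Gbp2 held 1, and Igtp held a GAS match followed by an ISRE match. Oasl2, Serpina3n and H2-D1 had no match of either motif in the 250 upstream bases.

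Oligodendrocyte genes were the most completely represented list among those examined: 9 of 11 were called higher, against 1.21% of all genes. Mbp, a myelin sheath gene, was at 595, 345, 233 and 298 CPM against 42.7 to 88.9 CPM (2.40 ± 0.39; adjusted p = 0.00017), and Cldn11, a tight junction gene of myelin, was at 186, 128, 90.5 and 85.7 CPM against 2.70 to 26.9 CPM (2.99 ± 0.48; adjusted p = 0.00012). Neither of these overlapped. Mag, Mog, Mobp, Mal, Ugt8a and Ermn rose by 1.89 to 3.34 on the log2 scale, Opalin was called by DESeq2 but not by edgeR (2.55 ± 0.81; edgeR adjusted p = 0.089), and Cnp was lower in every chronic library, at 569 to 735 CPM against 780 to 894 CPM, without being called (-0.33 ± 0.27). Without chronic libraries 1 and 2, Cldn11, Mbp and Mog were still called.

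The summed oligodendrocyte level was 2292 to 4469 CPM in chronic libraries and 1177 to 1342 CPM in controls, with the highest value in library 1. At score 4 it was 1063 to 2327 CPM, and Mbp was called higher in chronic EAE than at score 4 (log2 fold change 1.76 ± 0.36; adjusted p = 0.00099). Neuronal genes moved in the same direction. The sum over 10 neuron markers was 240.6 to 509.0 CPM against 58.9 to 205.1 CPM, and 2 of the 10 were called, against 1.21% of all genes. These were the synaptic vesicle genes Snap25 (1.38 ± 0.38; edgeR adjusted p = 0.043) and Syt1 (1.79 ± 0.51; edgeR adjusted p = 0.048), each called in 3 of the 9 fits that left out a library. DESeq2 also called Tubb3. Cbln1 and Pcp2, of cerebellar granule and Purkinje cells, reached at most 38.3 and 1.10 CPM in chronic libraries. The proteoglycan gene Cspg4, of oligodendrocyte precursors, was at 17.2, 4.97, 0 and 11.8 CPM against 0 to 5.31 CPM (2.49 ± 0.70; edgeR adjusted p = 0.047), a call kept in 2 of the 9 fits. It was the 1 called of 5 precursor markers, against 1.21% of all genes. The sum over the 5 overlapped, at 30.7 to 100.1 CPM in chronic libraries and 6.13 to 42.4 CPM in controls. Whether RNA of these other cells accounts for the rise of genes in chronic libraries was not tested.

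Immune cells were gated out by CD11B and CD45, yet some of their genes had counts. Ptprc, which encodes CD45, was at 21.4, 0.828, 5.50 and 12.3 CPM in chronic libraries and at 0 in the controls, at least 10.3-fold higher (6.41-fold without chronic library 1; adjusted p = 0.0074), and Lyz2, a lysozyme gene of macrophages and neutrophils, was at 9.96, 0.552, 39.2 and 70.4 CPM against 0, at least 31-fold higher (17.1-fold without chronic library 4; adjusted p = 0.0029). The other 14 myeloid genes were not called by edgeR, and DESeq2 also called Tyrobp, at 6.51, 3.03, 2.98 and 10.8 CPM against 0 to 2.61 CPM. Summed over these 14, chronic libraries held 155.8, 103.7, 102.4 and 190.0 CPM and controls 50.8 to 93.3 CPM, with no overlap. Among the receptor genes of the list the groups overlapped, with P2ry12 at 4.14 to 20.9 CPM against 3.79 to 13.96 CPM and Csf1r at 6.13 to 23.1 CPM against 4.17 to 22.2 CPM. Summed over 16 myeloid genes the level was 105.1 to 272.7 CPM against 50.8 to 93.3 CPM, with 2 of 16 called, against 1.21% of all genes. Summed over 10 T cell genes it was 3.44 to 114.9 CPM against 0 to 8.16 CPM, with 2 of 10 called: Cd3d, at 15.7, 0.276, 4.13 and 1.72 CPM, and Trbc2, at 21.1, 9.93, 8.71 and 0 CPM, both at 0 in controls. Chronic library 1 held the highest T cell sum, the highest choroid plexus sum (147.0 CPM against at most 12.1 CPM in controls) and also the highest C4b, Serpina3n and H2-D1. B cell sums reached 5.40 CPM and neutrophil sums 10.1 CPM in chronic libraries, endothelial sums 11.1 CPM against 6.53 CPM, mural sums 50.5 CPM against 44.7 CPM, fibroblast sums 177.2 CPM against 156.6 CPM, ependymal sums 72.2 CPM against 42.8 CPM and erythrocyte sums 48.9 CPM against 8.84 CPM. The part of these cells in the class II, interferon and complement genes was not tested.

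**Figure D3:**
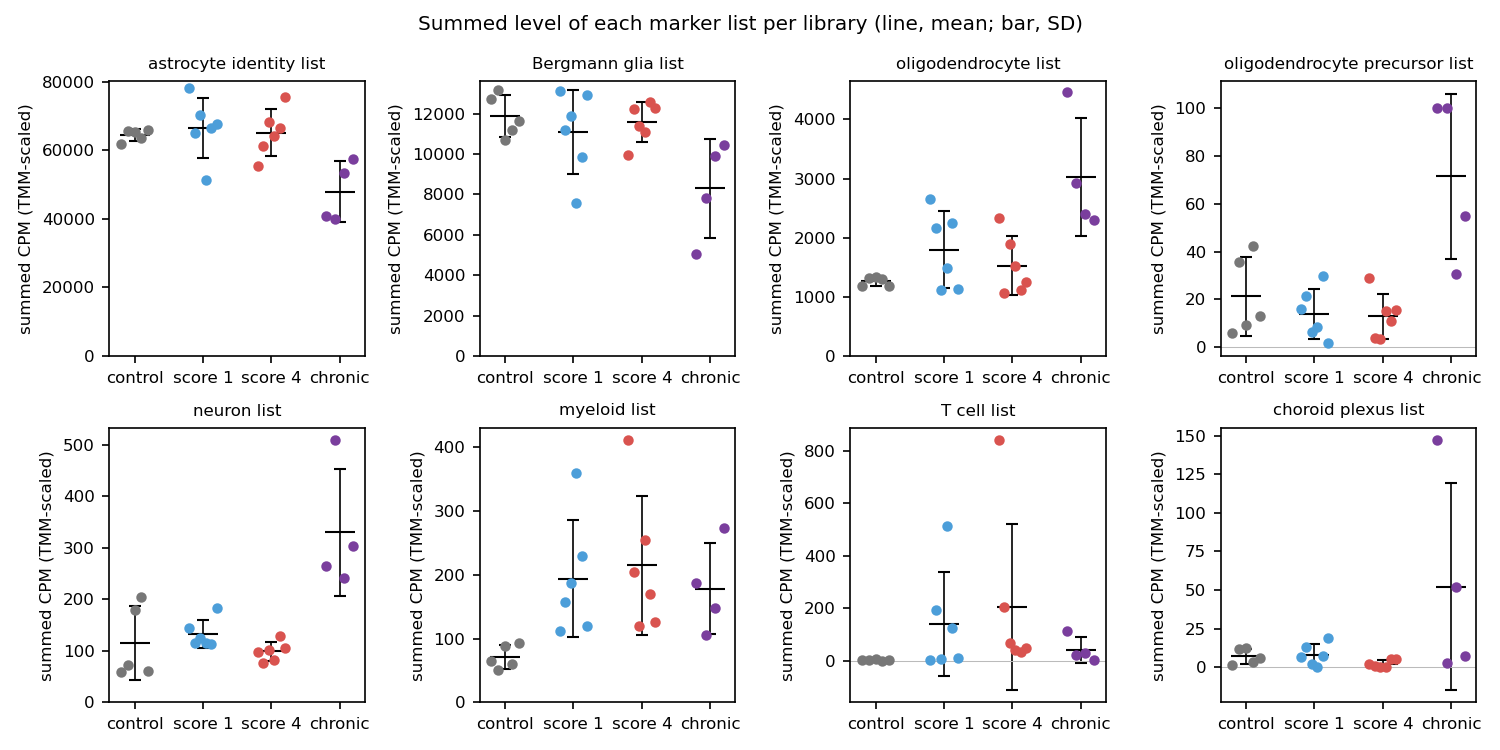
Summed TMM-scaled CPM (vertical axis) of 8 marker lists in each hindbrain GLAST-positive library by stage: points are libraries, lines means and bars SDs. The chronic libraries were below all controls on the astrocyte and Bergmann glia lists and above them on the oligodendrocyte, neuron and myeloid lists (2292 to 4469 against 1177 to 1342 CPM for oligodendrocyte genes).

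Genes of astrocyte identity were lower without passing the test. None of the 20 was called by edgeR or DESeq2, 6 had an unadjusted p under 0.05 with a lower level in chronic EAE and none with a higher one, against 19.1% of all genes in either direction, and the median log2 fold change was -0.42, against 0.00 over all genes with a mean of 5 CPM or more. In 8 of the 20, every chronic library was below every control, against 1.5% of all genes, and without TMM factors the count was also 8. Aqp4, the water channel of astrocyte endfeet, was at 466, 428, 622 and 487 CPM against 667 to 834 CPM (-0.63 ± 0.34; adjusted p = 0.30), and Slc1a2, the main glutamate transporter, at 3554 to 4412 CPM against 4937 to 5393 CPM (-0.37 ± 0.29; adjusted p = 0.57). Gja1, a gap junction gene, overlapped (0.22 ± 0.42). The Bergmann glia genes had a median of -0.61, with none of 8 called by either tool, 4 with an unadjusted p under 0.05 (19.1% of all genes) and 4 without overlap: Gria4, Sept4, Dao and Timp4. Gdf10 overlapped, at 995, 1713, 1708 and 2402 CPM against 1215 to 2234 CPM.

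The 10 genes with the largest rise, by the rule of highest log2 fold change without overlap, were all at 0 in the 5 controls. Their fitted fold changes therefore depend on the prior count. They were Lyz2, H2-Ab1, Il18r1, Ptprc, Pnma3, A930017K11Rik, Plac8, Tent5a, Aldh1l2 and Sytl2. In chronic library 2, Lyz2 was under the floor of 0.828 CPM and Ptprc was at it. For both, the lack of overlap therefore rests on few counts in that library. Il18r1, a subunit of the interleukin-18 receptor, was at 31.4, 2.21, 6.19 and 4.66 CPM, at least 11.5-fold higher, with an adjusted p of 0.011. Without library 1 the bound was 4.5-fold and the adjusted p 0.081. Sytl2, a synaptotagmin-like vesicle trafficking gene, was at 5.36, 3.86, 8.48 and 5.89 CPM, at least 6.09-fold higher (adjusted p = 0.00038), and was called in every fit that left out a library and without libraries 1 and 2 (adjusted p = 0.0022). Tent5a and the mitochondrial folate enzyme gene Aldh1l2 held in the same fits, with adjusted p of 0.0005 and 0.0012 over all libraries. Plac8 was at 16.1, 5.79, 3.90 and 1.23 CPM, and Pnma3 at 3.83, 10.2, 9.63 and 3.93 CPM.

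Of 23 genes of synapse and neurotransmitter support, 2 rose, against 1.21% of all genes, and none was called lower. The list median was -0.24 on the log2 scale. Every chronic library was above every control for 2 of the 23, against 2.25% of all genes, and below for 3, against 1.5%. Thbs2, a secreted synaptogenic thrombospondin, was at 1.91, 6.34, 11.2 and 8.84 CPM against 0 to 2.28 CPM (2.98 ± 0.55; adjusted p = 0.00082), and was called without libraries 1 and 2 as well. The glucocorticoid-induced kinase gene Sgk1 (2.56 ± 0.67; adjusted p = 0.027) and the mitochondrial gene mt-Co1 (1.46 ± 0.39; adjusted p = 0.031), at 1704, 2790, 1445 and 505 CPM against 470 to 788 CPM, also rose, and mt-Co1 overlapped the controls at library 4. Sgk1 was called in 4 and mt-Co1 in 3 of the 9 fits that left out a library. They were the only calls among 12 glucocorticoid-responsive and 13 mitochondrially encoded genes, against 1.21% of all genes.

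The 10 genes named among the 23 that fell were those with the largest fall without overlap. Arsk, a lysosomal sulfatase gene, was at 51.7, 33.7, 22 and 32.2 CPM against 63.1 to 111 CPM (log2 fold change -1.18 ± 0.30; adjusted p = 0.021). Nacc1, a transcriptional regulator gene, was at 29.0 to 45.9 CPM against 61.9 to 159 CPM (-1.25 ± 0.33; adjusted p = 0.030), and Cnot11, of the deadenylase complex, at 16.7 to 23.1 CPM against 31.0 to 76.9 CPM (-1.24 ± 0.29; adjusted p = 0.0097). Tcn2, which encodes the vitamin B12 carrier, was at 5.89 to 9.96 CPM against 20.1 to 29.7 CPM (-1.63 ± 0.45; adjusted p = 0.043), and its call was lost in each of the 9 fits that left out a library. Snx33, Washc5, Bak1, Gm26825, Gm42829 and Gm28439 completed the list, the last of them a pseudogene whose exons overlap another gene. Without chronic libraries 1 and 2 the 10 named here were not called.

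The chronic response was compared with that of the other sorted populations by testing the difference between the responses. Numbers in the libraries' column names recur across populations and are not explained in the labels, so libraries of different populations may come from the same mice, which these tests do not model. Relative to hindbrain GLAST-negative astrocytes, 13 genes had a more positive response in GLAST-positive cells (0.0557%) and 1 a more negative one (0.00429%), while 2618 genes (11.2%) had an unadjusted p under 0.05. The count of 14 became 2 without control library 2 and 3 without control library 5, reached 17 at most when single libraries were left out, and was 94 in a fit of these 4 groups alone. Sytl2 differed by 7.03 (adjusted p = 0.027), with a log2 fold change of 0.10 in the GLAST-negative cells. Hs3st3b1 and Gm12338 differed by 8.93 and 12.98. All 5 controls were at 0 for Sytl2, Hs3st3b1 and Gm12338, so these fitted differences depend on the prior count. The 1 negative call, Gm5905 at -13.25, had its highest GLAST-positive level in control library 5, at 394 CPM, while the other 4 controls were at 0 to 2.61 CPM. For C4b and Serpina3n the responses were 3.63 and 3.36 in GLAST-positive cells and 2.92 and 3.12 in GLAST-negative cells, in which 0.189% of all genes rose, and the differences were not called (0.71 ± 0.56 and 0.25 ± 0.71). In the GLAST-negative cells 16 of 37 interferon-stimulated genes and 6 of 20 class I genes rose, against 4 and 3 in GLAST-positive cells. No difference was called in either list. Of 11 oligodendrocyte genes 0 rose in GLAST-negative cells, against 9 in GLAST-positive cells, and 1 difference was called.

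The same contrast was set against GLAST-negative astrocytes of the spinal cord, so that region and GLAST status differ together. Relative to them, 2014 genes had a more positive response in hindbrain GLAST-positive cells (8.63%) and 930 a more negative one (3.99%), and 25.3% of all genes had an unadjusted p under 0.05. In the spinal cord cells themselves 5.16% of genes rose and 9.57% fell. Of the interferon-stimulated genes 15 of 37 had a more negative response and none a more positive one, and of the class I genes 8 of 20. B2m differed by -2.45 (adjusted p = 0.00025), H2-D1 by -2.27 (adjusted p = 0.0033) and Serpina3n by -3.07 (adjusted p = 0.0019), and C4b by -1.55, which was not called (adjusted p = 0.064). In the other direction, 17 of the 20 astrocyte identity genes had a more positive response in hindbrain and 1, S100b, a more negative one. In the spinal cord cells Slc1a2 fell by 3.74 and Aqp4 fell by 4.00 on the log2 scale. Gfap rose by 1.53 in hindbrain and had a log2 fold change of -0.10 in spinal cord (difference 1.63; adjusted p = 0.022), and Thbs2 rose in one and fell in the other (2.98 and -3.99; difference 6.97, adjusted p = 7.4e-12).

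**Figure D4:**
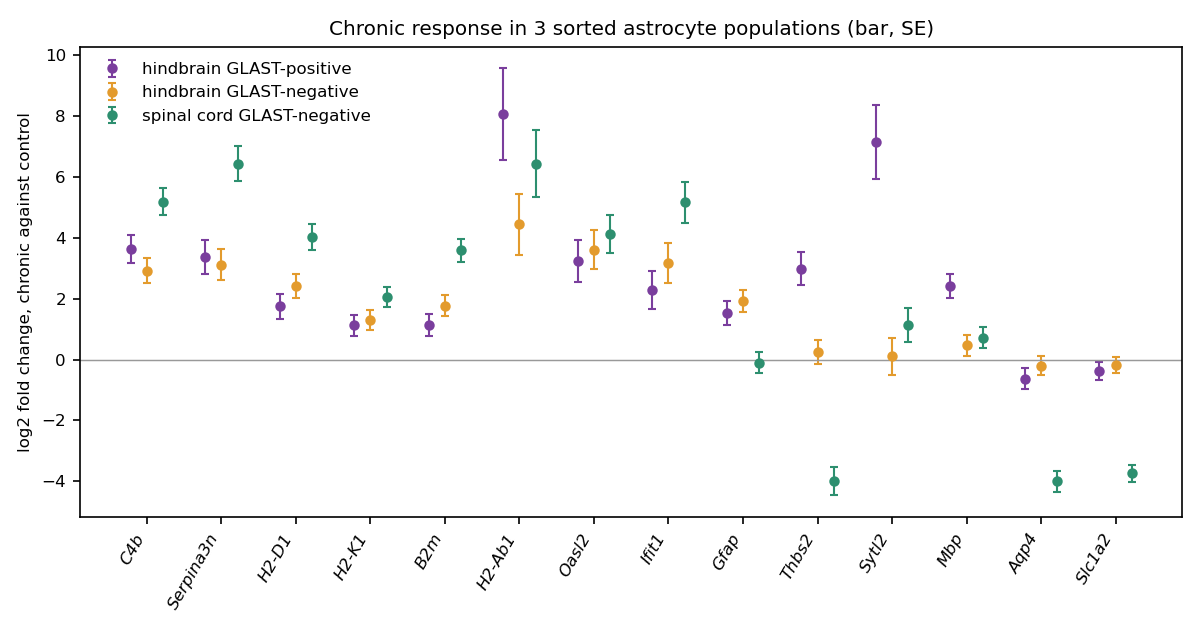
Log2 fold change of chronic EAE against control (vertical axis; bars, SE) for 14 genes in hindbrain GLAST-positive (4 against 5 libraries), hindbrain GLAST-negative (6 against 5) and spinal cord GLAST-negative astrocytes (6 against 5). Serpina3n was at 3.36, 3.12 and 6.43 in these populations and Thbs2 at 2.98, 0.25 and -3.99.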

How the data were processed

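Astrocyte RNA was profiled by 3′ tag sequencing (QuantSeq 3′ FWD, single reads). Per the labels and methods, the authors aligned reads to GRCm38 with HISAT 0.1.5 and counted them per Ensembl gene with HTSeq 0.6.1p1; the strand setting is not given in the sources used here. The deposited values are raw counts for 48526 genes, of which 48058 matched a symbol. Reads lack molecular identifiers and can be copies of one molecule, so floors of 3 counts cover counting error only.

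The counts were fitted with edgeR 4.0.16 (quasi-likelihood, TMM, R 4.3.3) over all 66 EAE libraries in 12 groups, with a total count of at least 10 (23324 genes). Called genes had a Benjamini-Hochberg adjusted p under 0.05 and an absolute log2 fold change over 1. CPM used TMM-scaled library sizes. Replicate numbers did not pair the libraries (mean correlation 0.00178, range -0.02 to 0.022, over 4 numbers). DESeq2 1.42.0 and other settings served as alternatives. Named genes were the 10 largest changes without overlap in each direction, called members of the lists, and preset genes. The largest called differences in response, and the largest changes without overlap between chronic EAE and score 4, were named as well. The members and lists were chosen with earlier results of these data known. A few genes of these lists are counted but not reported here by name.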

Additional observations from a re-analysis of the deposited data

Results flagged for a closer look

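In 11 of 130 groups of 4 or 5 libraries examined (8.46%), 1 library stood far from the others. The cutoff gives about 1 in 20 groups for independent, normally distributed values. These groups reuse the same 9 libraries, so no excess over chance can be read from the share. Chronic library 1 was the high one for Serpina3n (117.9 CPM, next 57.1), Ugt8a (70.46 CPM, next 26.81), Mal (241.6 CPM, next 84.93) and Il18r1 (31.4 CPM, next 6.188). Chronic library 3 was high for Ifit1 (27.5 CPM, next 11.86), and chronic library 4 for Bak1 (19.64 CPM, next 14.93). Among controls, library 3 was high for Syt1 (28.39 CPM) and low for Aqp4 (667.4 CPM), library 5 was high for Gm5905 (394.4 CPM) and Ermn (46.63 CPM), and library 2 was high for Timm23 (54.96 CPM).

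The chronic response differed between GLAST-positive and GLAST-negative hindbrain astrocytes, by the tested difference of log2 fold changes, for 14 genes. Among them were Sytl2 (7.034), Gm5905 (-13.25), Hs3st3b1 (8.928) and Gm12338 (12.98). Between hindbrain GLAST-positive and spinal cord GLAST-negative astrocytes it differed for 2944 genes. Among these were D930020B18Rik (13.12), Nuf2 (-13.36), Sytl2 (6.009), Nat8f7 (16.16), Gm5905 (-12.25), Hs3st3b1 (8.752), Timm23 (-12.96) and Gm20692 (11.51). Several of these genes had groups at 0, where the fitted difference depends on the prior count. Against controls, edgeR called only Sytl2 and Hs3st3b1 of the genes named in this paragraph. Without chronic library 1 the lower bound on the rise of D930020B18Rik went from 1.48-fold to 0. That of Nat8f7 went from 4.49-fold to 0.49-fold without library 4, and that of Gm12338 from 2.4-fold to 1.23-fold without library 3. Gm20692 had a mean of 0.751 CPM in chronic libraries.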

How the results depend on the processing

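For the chronic comparison with controls, the 283 higher genes became 448 with no low-count filter, 601 with DESeq2 and 26 without chronic libraries 1 and 2, an alternative chosen after seeing the data, and ranged from 152 to 337 when single libraries were left out. The 23 lower genes became 37 with filterByExpr, 81 with DESeq2, 49 when only the libraries of the contrast were fitted, 44 with no fold limit and 1 without chronic libraries 1 and 2, and ranged from 7 to 43. The replicate block, which the numbers do not support as a pairing, gave 302 higher and 69 lower, sharing 137 and 9 genes with the fit without it. The 14 differences from GLAST-negative hindbrain cells became 50 with no filter, 76 with DESeq2, 94 with only the libraries of the contrast and 293 with the replicate block, and ranged from 2 to 17. The 842 differences from score 4 became 415 with only the libraries of the contrast and ranged from 471 to 780. The 2944 differences from spinal cord cells (2014 and 930) ranged from 2352 to 2807, and leaving out single spinal cord libraries was not run. Without TMM factors, 4 of 170 mean levels moved by more than 1 SD: Slc1a2 to 4405 CPM in chronic EAE and 5412 CPM in controls, Atp1b2 to 6692 CPM in controls and Gbp2 to 8.891 CPM in chronic EAE. Of 51 named genes called against controls, 21 were called in every fit that left out 1 library, 30 with the replicate block and 14 without chronic libraries 1 and 2. The causes were not tested. At these depths genes under about 1 CPM could not be told from 0.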
